A study of Mus musculus with 4 samples.

Results

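The genes described here are the solute carrier genes that were expressed in captured luminal epithelium or stroma of the mouse uterus. They are the rows whose symbol has the form Slc, family number, a and member number, and whose level reached 1 RPKM in at least 1 of 4 libraries. RPKM is a read count scaled to transcript length in kilobases and to the size of the library, so levels may be compared between genes. The tables held 327 solute carrier rows, of which 141 (43.1%) met the rule and 186 did not, and the same rule kept 10163 of all 23235 genes. The measured level chose the members, so their presence among expressed genes is not a result. Just inside the rule lay Slc38a6 with a highest level of 1.01 RPKM, Slc16a13 and Slc16a1 with 1.04 RPKM, and Slc25a27 and Slc37a1 with 1.05 RPKM. Just outside it lay Slc25a45 at 0.992 RPKM, Slc19a2 at 0.940 RPKM, Slc25a42 at 0.927 RPKM, Slc4a3 at 0.907 RPKM and Slc38a7 at 0.903 RPKM.

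Solute carriers are membrane proteins that move sugars, amino acids, ions, metals, nucleosides, vitamins and metabolites across the plasma membrane and the membranes of organelles, as facilitators, exchangers or cotransporters driven by ion gradients. The symbol names a family by sequence and substrate, for example Slc2 for facilitative glucose transporters, Slc39 for zinc importers and Slc25 for carriers of the mitochondrial inner membrane. In the uterus, the luminal epithelium uses such proteins to set the composition of the fluid around the embryo before attachment, and the stroma uses them to take up nutrients ahead of its differentiation.

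The libraries came from mouse uterus on day 4 of a pseudopregnancy begun by mating with a vasectomized male. The luminal epithelium control and the stroma control were labelled Msx1f/f/Msx2f/f (floxed), and the luminal epithelium and stroma labelled knockout were Msx1d/d/Msx2d/d, a uterine-specific deletion of the homeobox genes Msx1 and Msx2. The series describes a single mouse of each genotype, so a genotype difference and a difference between animals cannot be told apart, and there is 1 library in each of the 4 groups. The Cre line that made the deletion and the age of the mice are not named in the labels, and the labels name no other agent. Tissue was taken by laser capture. No replicate exists for any value, no test across samples was possible, and higher and lower below describe these libraries only.

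Depth, read from the steps between low RPKM values, was about 6.27 M reads in the luminal epithelium control, 88.0 M in the luminal epithelium labelled knockout, 42.96 M in the stroma control and 61.5 M in the stroma labelled knockout. The control was therefore the shallow library of the epithelial pair, by 14.02 times. Msx1 stood at 23.2 RPKM in epithelium control and 13.6 RPKM in epithelium labelled knockout, and Msx2 at 1.31 and 2.06 RPKM. The levels of the targeted genes therefore did not settle the label. The row Msx1as, read beside them, was at 38.97 RPKM in epithelium control and 2.15 RPKM in epithelium labelled knockout, a log2 difference of -3.66. In stroma Msx1as was at 0.115 and 0.0353 RPKM. Whether its difference in epithelium came from the deletion was not tested. Summed over 11 epithelial markers, the level was 453.9 and 518.4 RPKM in epithelium (control, then labelled knockout) and 1.82 and 0.558 RPKM in stroma. Summed over 12 stromal markers it was 17.1 and 7.25 RPKM in epithelium against 480.1 and 728.1 RPKM in stroma. Glandular markers summed to 1.51 and 5.27 RPKM in epithelium, where Aldh1a1 was at 0.789 and 4.86 RPKM, and to at most 0.561 RPKM in stroma. Cxcl15 was also higher in epithelium labelled knockout, at 0.182 and 0.261 RPKM. Sox9, at 0.448 and 0.118 RPKM, and Foxa2, at 0.0881 and 0.0312 RPKM, were lower. The other 3 of 7 glandular markers were listed at 0 in both epithelial libraries. Smooth muscle markers summed to 4.95 and 0.572 RPKM in epithelium, with 6 of 6 lower in the labelled knockout, and to 16.01 and 18.6 RPKM in stroma. Endothelial markers summed to at most 0.639 RPKM in epithelium. Leukocyte markers summed to 18.6 and 3.46 RPKM in epithelium, with 8 of 11 lower and 3 higher in the labelled knockout. In stroma they summed to 124.4 and 55.6 RPKM, with 11 of 11 lower. Their part in the results below was not tested. A level listed at 0 is not read as absence, since the ribosomal protein gene Rpl26 was listed at 0 in both control libraries.

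Summed levels of solute carrier transcripts were higher in luminal epithelium than in stroma, on levels from 2 tables that were normalized separately. Of the 141 genes, 100 reached 1 RPKM in epithelium control, 109 in epithelium labelled knockout, 77 in stroma control and 79 in stroma labelled knockout. Over all genes of the tables the counts were 7381, 7783, 7522 and 7676 in those libraries, in the same order. In all 4 libraries 51 of the 141 genes reached that level, 63 reached it in both compartments, 56 in epithelium only and 22 in stroma only. The same split over all kept genes is not given here, so these counts are not read as particular to solute carriers. Another count bears on every comparison below: 27 genes met the rule through 1 library only, 9 through the epithelium control, 13 through the epithelium labelled knockout, 3 through the stroma control and 2 through the stroma labelled knockout. At 10 RPKM or more there were 18, 21, 4 and 3 genes in those libraries, in the same order. The summed level was 730.4 and 853.4 RPKM in epithelium against 252.2 and 268.8 RPKM in stroma. The 10 highest genes of each library held between 40.7% and 50.8% of that level. Counts at 10 RPKM and sums over all genes are not given here. These differences are therefore not read as particular to solute carriers. Members came from 40 of the 47 families in the tables. Mitochondrial carriers were the largest class with 28 of 44 rows expressed. Amino acid transporters followed with 22 of 59, zinc transporters with 18 of 24 and the sugar class with 13 of 32. Classes follow family number, so the sugar class also holds carriers of other substrates, such as the iodide transporter Slc5a5. The families of vesicular neurotransmitter carriers, Slc17, Slc18 and Slc32, had no member.

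Promoter sequences are shown for 5 genes on which the results turn: Slc2a12, Slc24a4 and Slc16a12, which were lower in epithelium labelled knockout, Slc1a4, which had the largest difference in the other direction, and Slc25a48, the most abundant member. They are from RefSeq on GRCm38.p6, not the mm9 build of the tables, and run 5′ to 3′ on the gene's strand from 250 bases before the annotated start to 30 bases after it. Capitals mark letters that match a motif on either strand.
Slc2a12 (chr10:22644761-22645040, + strand): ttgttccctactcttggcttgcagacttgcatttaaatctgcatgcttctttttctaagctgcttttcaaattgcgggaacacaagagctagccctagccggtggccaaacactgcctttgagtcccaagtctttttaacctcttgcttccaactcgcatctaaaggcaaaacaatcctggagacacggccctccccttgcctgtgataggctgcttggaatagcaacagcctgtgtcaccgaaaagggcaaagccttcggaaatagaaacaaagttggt
Slc24a4 (chr12:102128477-102128756, + strand): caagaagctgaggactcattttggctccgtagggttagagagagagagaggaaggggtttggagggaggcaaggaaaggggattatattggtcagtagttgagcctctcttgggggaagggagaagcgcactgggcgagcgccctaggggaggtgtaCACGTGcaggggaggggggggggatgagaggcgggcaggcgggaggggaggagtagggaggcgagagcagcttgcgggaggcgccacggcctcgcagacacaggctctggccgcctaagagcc
Slc16a12 (chr19:34747299-34747578, - strand): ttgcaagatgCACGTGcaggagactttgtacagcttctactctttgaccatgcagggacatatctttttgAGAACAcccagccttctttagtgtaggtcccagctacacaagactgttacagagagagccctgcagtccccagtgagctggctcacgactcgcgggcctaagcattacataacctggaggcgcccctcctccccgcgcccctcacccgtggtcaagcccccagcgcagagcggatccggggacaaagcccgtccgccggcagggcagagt
Slc1a4 (chr11:20332684-20332963, - strand): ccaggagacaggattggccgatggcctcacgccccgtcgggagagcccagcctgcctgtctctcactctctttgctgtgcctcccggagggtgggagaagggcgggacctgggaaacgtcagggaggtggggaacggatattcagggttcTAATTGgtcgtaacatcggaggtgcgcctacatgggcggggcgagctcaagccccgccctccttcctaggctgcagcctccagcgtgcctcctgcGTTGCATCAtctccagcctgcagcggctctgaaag
Slc25a48 (chr13:56438105-56438384, + strand): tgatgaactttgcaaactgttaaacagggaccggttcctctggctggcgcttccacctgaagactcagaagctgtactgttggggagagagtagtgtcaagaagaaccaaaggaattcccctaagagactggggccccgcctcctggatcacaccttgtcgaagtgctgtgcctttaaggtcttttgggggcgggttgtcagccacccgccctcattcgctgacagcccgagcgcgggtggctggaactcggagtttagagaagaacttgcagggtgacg

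The motifs searched were the amino acid response core TGATGNAAN, the progesterone receptor half-site AGAACA, the full palindromic estrogen response element, the metal response cores TGCACNC and TGCGCNC, the hypoxia response core ACGTG and the homeobox core CAATTA, in windows of 300 bases (250 before and 50 after a start). RefSeq windows were matched for 105 of the 141 members, 139 windows in all, and for 6 of the 9 genes that differed at least 2-fold between the epithelial libraries. Counting the annotated start as position 0, the window of Slc1a4 held an amino acid response core on its minus strand from position -5 to position 3 and a homeobox core on its minus strand from -100 to -95. The window of Slc16a12 held a hormone half-site from -180 to -175 and the hypoxia core on both strands between -240 and -235, and that of Slc24a4 held the hypoxia core on both strands between -93 and -88. No searched motif was found in the windows of Slc2a12, Slc25a48, Slc44a3 or either start of Slc13a5. Among all 32851 windows the amino acid response core was present in 3.95%, the hormone half-site in 18.97%, the hypoxia core in 19.6% and the homeobox core in 8.0%. Among the members' windows the shares were 3.60%, 15.1%, 31.7% and 5.04%, and the metal response cores TGCACNC and TGCGCNC occurred in 14.4% and 25.9% against 12.6% and 15.4% of all windows. The estrogen response element was in none of the members' windows and in 0.07% of all. These matches are descriptions of letters and not of bound sites.

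The most abundant solute carrier in epithelium was Slc25a48, a mitochondrial inner membrane carrier linked to choline import (chromosome 13, 56539716 to 56573724, mm9). Its level was 86.1 RPKM in epithelium control and 90.9 RPKM in epithelium labelled knockout, against 0.137 and 0.0584 RPKM in stroma. The carriers of the respiratory chain's supply, by contrast, were abundant everywhere. Slc25a5, an exchanger of ADP and ATP, was at 26.1, 29.6, 20.4 and 21.1 RPKM in epithelium control, epithelium labelled knockout, stroma control and stroma labelled knockout. Its paralog Slc25a4 was at 14.6 and 15.1 RPKM in epithelium and somewhat higher, at 23.8 and 26.3 RPKM, in stroma. The phosphate carrier Slc25a3 (chromosome 10, 90579323 to 90586708) was at 16.2, 32.6, 19.1 and 17.8 RPKM in the same order, so that the epithelium labelled knockout stood alone above the other libraries. Slc25a11, which exchanges oxoglutarate and malate, was at 18.7 and 20.6 RPKM in epithelium and 3.13 and 3.51 RPKM in stroma.

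Among sugar and polyol transporters, the high-affinity glucose transporter Slc2a3 (GLUT3) and the facilitative transporter Slc2a12 (GLUT12) led in epithelium control, and Slc2a3 and the sodium-coupled inositol transporter Slc5a11 led in epithelium labelled knockout. Slc2a3 stood at 34.2 RPKM in control and 74.7 RPKM in labelled knockout, and Slc2a12 stood at 31.99 RPKM in control and 5.31 RPKM in labelled knockout. The pair thus stood near the same level in the control and far apart in the labelled knockout. In stroma they were at 0.746 and 0.691 RPKM (Slc2a3) and 1.72 and 1.73 RPKM (Slc2a12). Slc2a1 (GLUT1), the widely expressed glucose transporter, was lower in epithelium than either at 4.44 RPKM in control and stood at 5.55 RPKM in labelled knockout, with 1.10 and 0.958 RPKM in stroma. Slc5a11 was at 18.5 and 30.8 RPKM in epithelium and at 0.0116 and 0.00792 RPKM in stroma. The sodium-coupled glucose transporter Slc5a1 was at 1.95 and 0.965 RPKM in epithelium and listed at 0 in both stroma libraries. Of the sugar transporters on a list of 38 carriers named for known uterine roles, Slc2a4 and Slc2a8 did not reach 1 RPKM, and 30 genes of that list were members.

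Amino acid transporters divided between the compartments. Slc1a1, a transporter of glutamate and aspartate, was at 34.6 and 22.8 RPKM in epithelium and 0.317 and 0.225 RPKM in stroma. Slc38a2, a sodium-coupled importer of small neutral amino acids, was at 20.3 and 35.5 RPKM in epithelium and 5.58 and 6.72 RPKM in stroma, so it was high in both. Slc6a14, a broad-range importer of neutral and cationic amino acids, was at 17.2 and 19.8 RPKM in epithelium, at 0.00808 RPKM in stroma control and listed at 0 in stroma labelled knockout. The heavy chain Slc3a2, which carries the Slc7 light chains to the surface, was even across the libraries at 4.17, 4.70, 4.82 and 6.10 RPKM. Its partner Slc7a5 (LAT1), which exchanges large neutral amino acids, was at 0.992 and 0.597 RPKM in epithelium and 0.759 and 1.41 RPKM in stroma. Slc7a8 (LAT2) was a stromal transcript at 1.13 and 2.02 RPKM against 0.0424 and 0.0447 RPKM in epithelium.

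Zinc importers were prominent in epithelium. Slc39a4 (ZIP4, chromosome 15, 76442813 to 76447282), the importer whose loss causes inherited zinc deficiency, was at 57.3 and 76.7 RPKM in epithelium. Slc39a1 was at 15.5 and 19.7 RPKM, Slc39a14, which also imports iron and manganese, at 13.4 and 15.4 RPKM, and Slc39a2 at 6.68 and 7.26 RPKM. In stroma the same genes stood at 0.618 and 0.0694 RPKM (Slc39a4), 5.74 and 5.69 RPKM (Slc39a1), 1.65 and 1.72 RPKM (Slc39a14) and 0.0739 and 0.0772 RPKM (Slc39a2). Only Slc39a1 of these had a level over 5 RPKM in stroma.

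**Figure D1:**
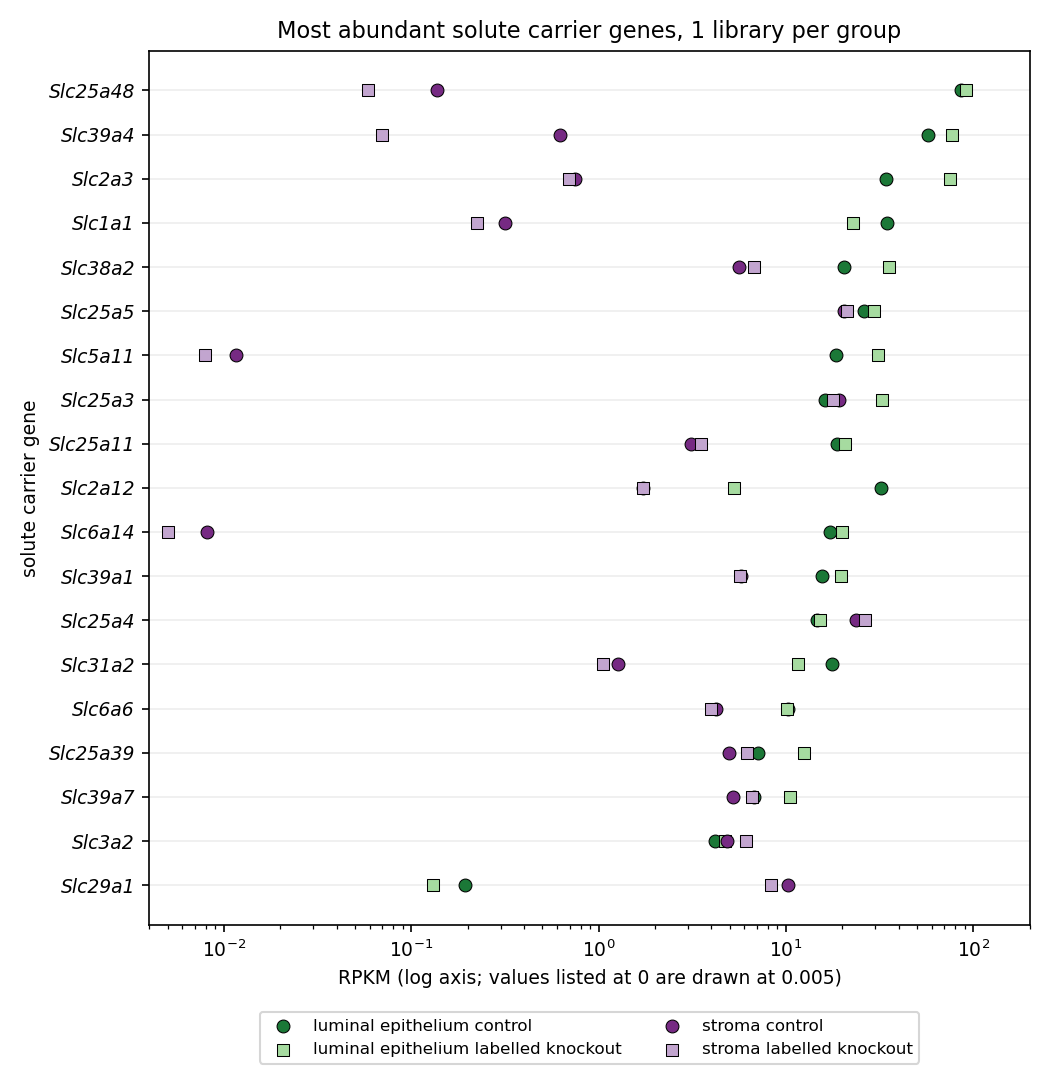
Levels of 19 solute carrier genes that were among the 10 highest of any library, on a logarithmic RPKM axis with 1 point for each of the 4 libraries and genes ordered by their mean in luminal epithelium. Slc25a48 stands at 86.1 and 90.9 RPKM in epithelium and under 1 RPKM in stroma, while Slc25a4 and Slc25a5 lie above 10 RPKM in all 4 libraries and Slc2a12 shows the widest gap between the epithelial points.

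The first comparison asked how solute carrier transcripts of the luminal epithelium differed between the labelled knockout and the control. A difference was counted at 2-fold on the log2(RPKM + 1) scale, which understates differences of low genes. On that scale 4 of 141 members (2.84%) were higher in the labelled knockout, where 4.17% of all genes kept by the same rule were, and 5 (3.55%) were lower, against 1.86%. Ratios of single genes below are of RPKM with no pseudocount, and their brackets are 95% limits from estimated reads that cover counting error only. With libraries rescaled to their upper quartile, or to their sum without the 50 most abundant genes, 2 members were higher and 5 lower under each. All kept genes then stood at 3.59% higher and 2.35% lower with the upper quartile, and at 3.34% and 2.63% without the 50 most abundant genes.

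The amino acid exchanger Slc1a4 (ASCT1, chromosome 11, 20202183 to 20232716) had the largest difference upward, a log2 difference of 1.91. Its level went from 1.21 RPKM in control to 7.31 RPKM in labelled knockout, a ratio of 6.06 (4.21 to 9.20). The choline transporter-like gene Slc44a3 (chromosome 3, 121162446 to 121235262) was at 1.68 and 5.09 RPKM, a ratio of 3.03 (2.02 to 4.57). These 2 genes remained at least 2-fold higher under both rescalings. Slc2a3 (chromosome 6, 122677827 to 122692763), at the levels given above, had a ratio of 2.18 (2.03 to 2.34) and a log2 difference of 1.10, which was 0.94 and 0.86 under the rescalings. The sodium and proton exchanger Slc9a2 (NHE2, chromosome 1, 40738557 to 40825730) was at 0.246 and 1.61 RPKM, a ratio of 6.57 (3.36 to 17.4) that rests on about 7.4 reads in the control. Its log2 difference of 1.07 was 1.0 and 0.97 under the rescalings, and it met the expression rule through the labelled knockout alone. In stroma Slc9a2 was listed at 0 in both libraries, and the other 3 genes stayed under 1 RPKM there.

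All 5 lower genes stayed at least 2-fold lower under both rescalings. Slc2a12 was 6.03-fold lower in the labelled knockout (5.54 to 6.55), a log2 difference of -2.39, from about 796 estimated reads in the control. Its locus in the tables (chromosome 10, 22364817 to 22451253) is also given for Tbpl1, a gene outside the rule for named genes, which was at 7.24 and 3.42 RPKM in epithelium, 2.12-fold lower (1.73 to 2.55). The use of strand in counting is not given in the sources used here, so reads shared by the pair cannot be told apart. The calcium exchanger Slc24a4 (NCKX4, chromosome 12, 103367629 to 103504959) was at 6.4 and 1.56 RPKM, 4.11-fold lower (3.14 to 5.33). Slc16a12 (MCT12, chromosome 19, 34742896 to 34821601), a monocarboxylate family member that carries creatine, was at 4.66 and 1.39 RPKM, 3.35-fold lower (2.72 to 4.14). Slc12a2 (NKCC1), the cotransporter that loads cells with chloride, was at 10.8 and 4.07 RPKM, 2.66-fold lower (2.39 to 2.95).

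The citrate transporter Slc13a5 (chromosome 11, 72055496 to 72080106) had 1.20 RPKM in control but 0.0181 RPKM in labelled knockout, 66.1-fold lower (25.2 to 226). That value rests on about 23.5 estimated reads in the control and 5 in the labelled knockout, and the gene met the expression rule through the control alone. In the authors' deposited table it was the only member marked significant in epithelium, with q = 0.000217, where 0.841% of the genes compared there were so marked, and no member was marked in stroma, where 0.0409% were. None of the other genes that differed at least 2-fold in epithelium was marked there. That includes Slc2a3 and Slc12a2, whose counting limits were narrow. The authors' values also came from 1 library per genotype.

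**Figure D2:**
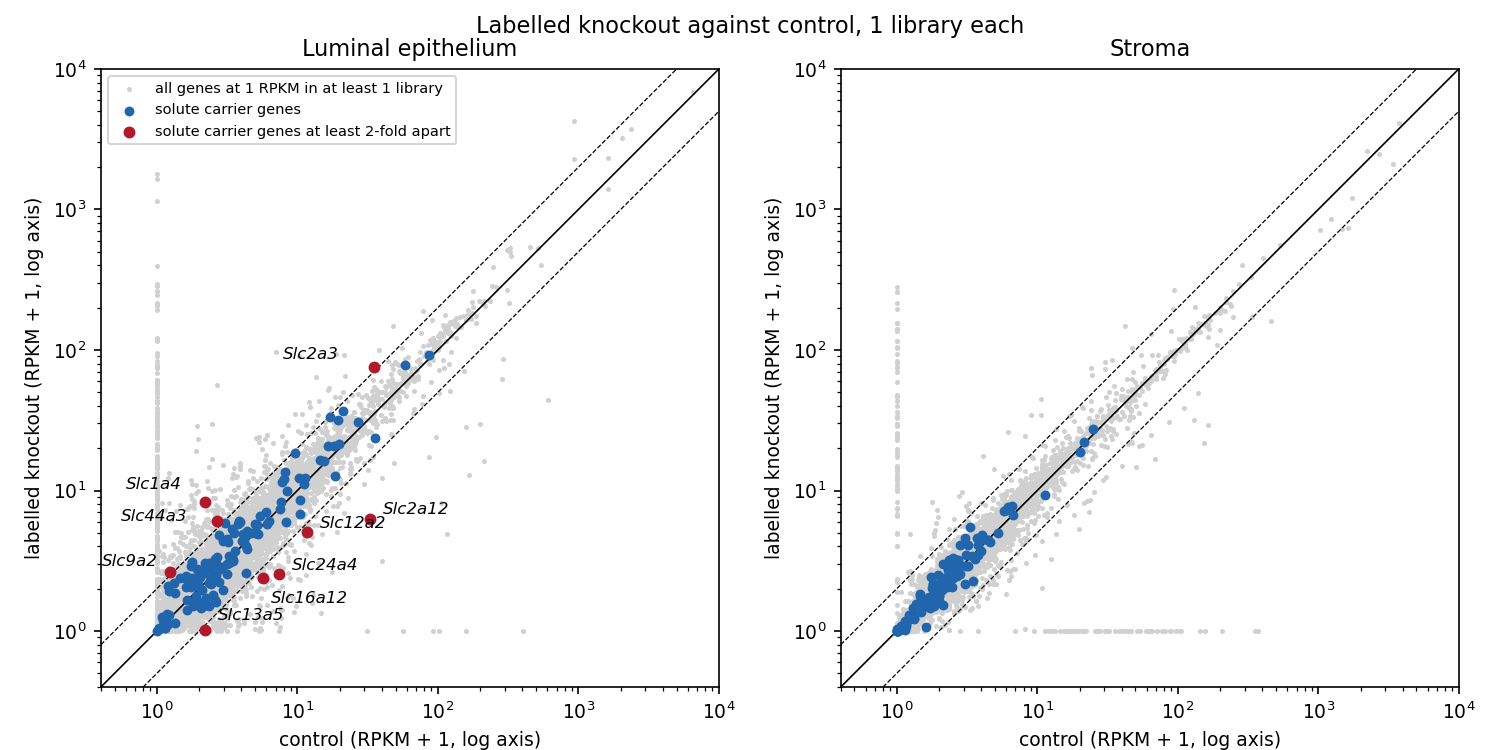
RPKM + 1 in the labelled knockout (vertical) against the control (horizontal), on logarithmic axes, for luminal epithelium on the left and stroma on the right, 1 library each. Grey points are all genes kept by the expression rule, blue points solute carrier genes, red points the 9 solute carrier genes at least 2-fold apart, the solid line equal levels and the dashed lines 2-fold; the stroma panel has no red point.

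At a 1.5-fold difference 23 members were higher and 10 lower in epithelium labelled knockout, 16.3% and 7.09% of them, where 10.4% and 4.97% of all kept genes were. Among the higher genes were the peptide transporter Slc15a2 (PEPT2) at 8.55 and 17.5 RPKM, the mitochondrial carrier Slc25a3 given above, and Slc38a2. The proton-coupled amino acid transporter Slc36a1 was at 0.779 and 2.09 RPKM and the orphan cationic family member Slc7a4 at 1.77 and 3.82 RPKM. The iron exporter Slc40a1 (ferroportin) was at 0.324 and 1.19 RPKM, the iron importer Slc11a2 (DMT1) at 0.613 and 1.48 RPKM and the folate transporter Slc46a1 at 0.765 and 1.91 RPKM. The ratios of these 3 low genes ran from 2.41 to 3.69. Slc36a1, Slc40a1 and Slc46a1 met the expression rule through the epithelium labelled knockout alone, the library in which they were high, so their differences are described only. Among the lower genes were the bicarbonate cotransporter Slc4a7 at 3.32 and 1.58 RPKM, the concentrative nucleoside transporter Slc28a3 at 1.62 and 0.602 RPKM, the sugar transporter Slc2a6 at 1.61 and 0.661 RPKM, and the glutamine exchanger Slc1a5 (ASCT2) at 9.44 and 5.83 RPKM. The glutamate transporter Slc1a1, at the levels given above, and the copper-related Slc31a2, at 17.6 and 11.6 RPKM, were abundant genes with log2 differences of -0.58 and -0.56, just short of 1.5-fold.

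Over all 141 members the log2 difference in epithelium was above 0 for 86 and below 0 for 54, with a median of 0.12, against 0.07 over all kept genes. The share of all kept genes above 0 is not given here. Counts above or below 0, here and for the classes below, are therefore not read as results about solute carriers. The rescalings moved the median of all kept genes by -0.08 and -0.13, and the members' median then stood at 0.00 and -0.04. The counting limits of the ratio left out 1 for 67 members, 46 higher and 21 lower. The same share over all kept genes is not given here, so that count is not read as a result about solute carriers. The middle 90% of members lay between -0.65 and 0.82, and of all kept genes between -0.58 and 0.89, so the solute carriers spread about as far as other genes.

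By substrate, the zinc importers of the Slc39 family had 12 of 12 members above 0 in epithelium labelled knockout, with a median log2 difference of 0.35 and no member at 2-fold. Under the rescalings 10 and 9 of the 12 stayed above 0. The median of all kept genes was itself above 0 as deposited, at 0.07. Slc39a4 was 1.34 times its control level (1.25 to 1.43) and Slc39a7, which releases zinc from the endoplasmic reticulum, went from 6.78 to 10.5 RPKM. The zinc exporters of the Slc30 family had 2 of 6 above 0, with a median of -0.02, and Slc30a1 was at 1.44 and 1.17 RPKM. Mitochondrial carriers had 19 of 28 above 0 as deposited, and 15 and 14 of 28 under the rescalings, so no direction is given for that class. Among those 28, the differences at 1.5-fold or more that fall under the rule for named genes were all higher: Slc25a3, Slc25a29 (a carrier of basic amino acids, 0.193 and 1.11 RPKM, kept through the labelled knockout alone), Slc25a39 (glutathione import, 7.10 and 12.5 RPKM) and Slc25a1 (citrate, 6.98 and 11.1 RPKM).

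The chloride, sodium, potassium and calcium class had 6 of 7 members below 0, as deposited and under both rescalings. Within it the Slc12 cotransporters had 4 of 5 below 0 under every scaling, among them the potassium and chloride exporter Slc12a7 at 1.21 and 0.534 RPKM. The sugar class had 5 of 13 above 0 and 8 below, and it included both a member called higher (Slc2a3) and a member called lower (Slc2a12). Amino acid transporters had 13 of 22 above 0 and 9 below, with a median of 0.04, as deposited. Under the rescalings 10 and 8 of the 22 were above 0, with medians of -0.02 and -0.05, so no direction is given for that class, and Slc1a4 stood far from its middle. The choline and acetyl-CoA class had 5 of 5 above 0 as deposited and 4 of 5 under each rescaling. The taurine transporter Slc6a6, counted in the amino acid class, was at 10.2 and 10.1 RPKM.

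**Figure D3:**
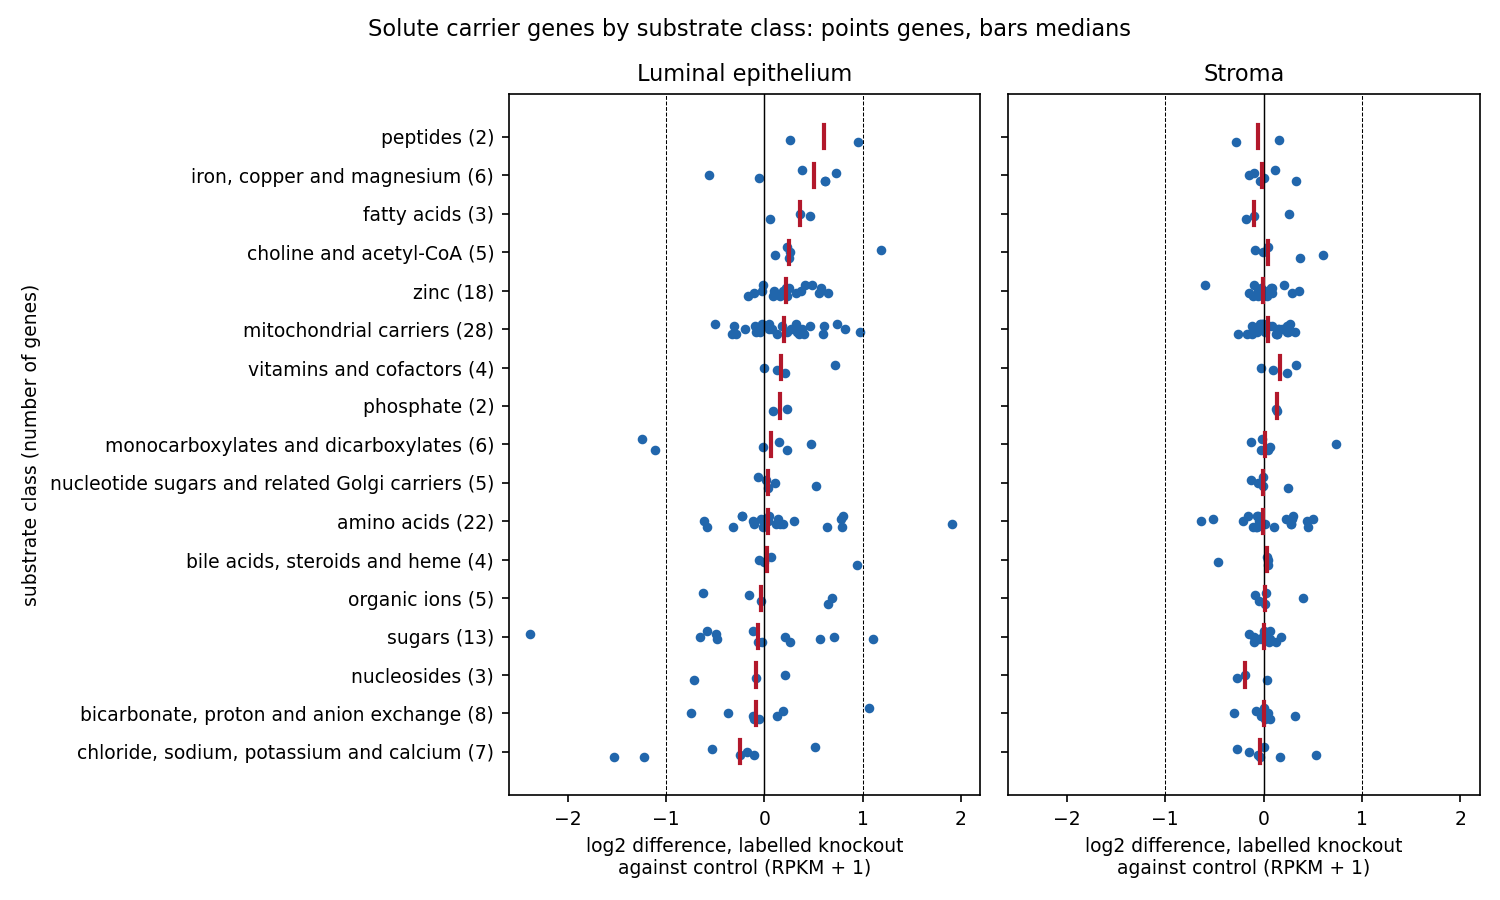
Log2 difference of labelled knockout against control for each solute carrier gene, grouped by substrate class, in luminal epithelium (left) and stroma (right). Points are genes, red bars class medians and dashed lines 2-fold. In epithelium Slc2a12 (sugars, -2.39) and Slc1a4 (amino acids, 1.91) are the outermost points, and in stroma every point lies between the dashed lines.

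The second comparison asked the same of the stroma. No member was 2-fold higher or 2-fold lower in stroma labelled knockout, where 1.14% and 1.25% of all kept genes were. Most genes called in stroma had no messenger RNA identifier, and among kept genes with one the shares were 0.396% and 0.437%. At 1.5-fold, 2 members were higher and 2 lower (1.42% each), against 2.37% and 2.35% of all kept genes. The middle 90% of members lay between -0.27 and 0.37, and of all kept genes between -0.36 and 0.41. Both ranges were narrower than in epithelium, whose control library was the shallow one. The part of depth in this was not tested.

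Among the members higher in stroma labelled knockout at 1.5-fold was the choline transporter-like Slc44a1, at 2.05 RPKM in control and 3.62 RPKM in labelled knockout, a ratio of 1.77 (1.498 to 2.08). Smaller differences in that direction were seen for the potassium and chloride cotransporter Slc12a4 at 1.81 and 3.08 RPKM, the sodium-coupled glutamine transporter Slc38a1 at 1.34 and 2.18 RPKM, and the exchangers Slc7a8 and Slc7a5 at the levels given above. The acetyl-CoA transporter Slc33a1 was at 1.44 and 2.15 RPKM and Slc22a17 at 1.495 and 2.29 RPKM.

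In the other direction, Slc1a5 was at 2.51 RPKM in stroma control and 1.26 RPKM in stroma labelled knockout, a 2.00-fold difference (1.66 to 2.42) before the pseudocount. It was therefore lower in the labelled knockout in both compartments. The cationic amino acid transporter Slc7a2 was at 2.07 and 1.15 RPKM and Slc10a6, a carrier of sulfated steroids, at 1.13 and 0.539 RPKM. Slc26a2, a sulfate transporter, was at 0.840 and 0.499 RPKM. The nucleoside transporter Slc29a1 (ENT1), the most abundant member of both stroma libraries outside the mitochondrial carriers, was at 10.3 and 8.35 RPKM.

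Slc39a4 was at 0.618 RPKM in stroma control and 0.0694 RPKM in stroma labelled knockout, 8.90-fold lower (4.65 to 18.6), with the 2 levels both under 1 RPKM. These were 1.08% and 0.0905% of its level in the matching epithelial library. Epithelial markers were lower too: 10 of 11 were lower in stroma labelled knockout, and their sum in stroma was 0.401% of the epithelial sum in the controls and 0.108% in the labelled knockouts. In bulk samples, fewer cells of a type and less RNA per cell cannot be told apart. Of 11 carrier genes that were at 5 RPKM or more in both epithelial libraries and at least 10-fold lower in stroma, 8 were lower in stroma labelled knockout, and their summed level was 3.73 and 2.75 RPKM. Slc44a4, Slc23a1 and Slc39a2 were the other 3. The part of captured epithelium in the stromal values of these genes was not tested.

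The reverse was examined in epithelium. All 12 stromal markers were lower in epithelium labelled knockout than in control, and their sum there was 3.57% of the stromal sum in the controls and 0.995% in the labelled knockouts. The 13 carrier genes that were at 1 RPKM or more in both stroma libraries and at least 5-fold lower in epithelium did not share that direction: 6 of 13 were lower, and their summed level was 2.13 RPKM in epithelium control and 2.79 RPKM in epithelium labelled knockout.

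**Figure D4:**
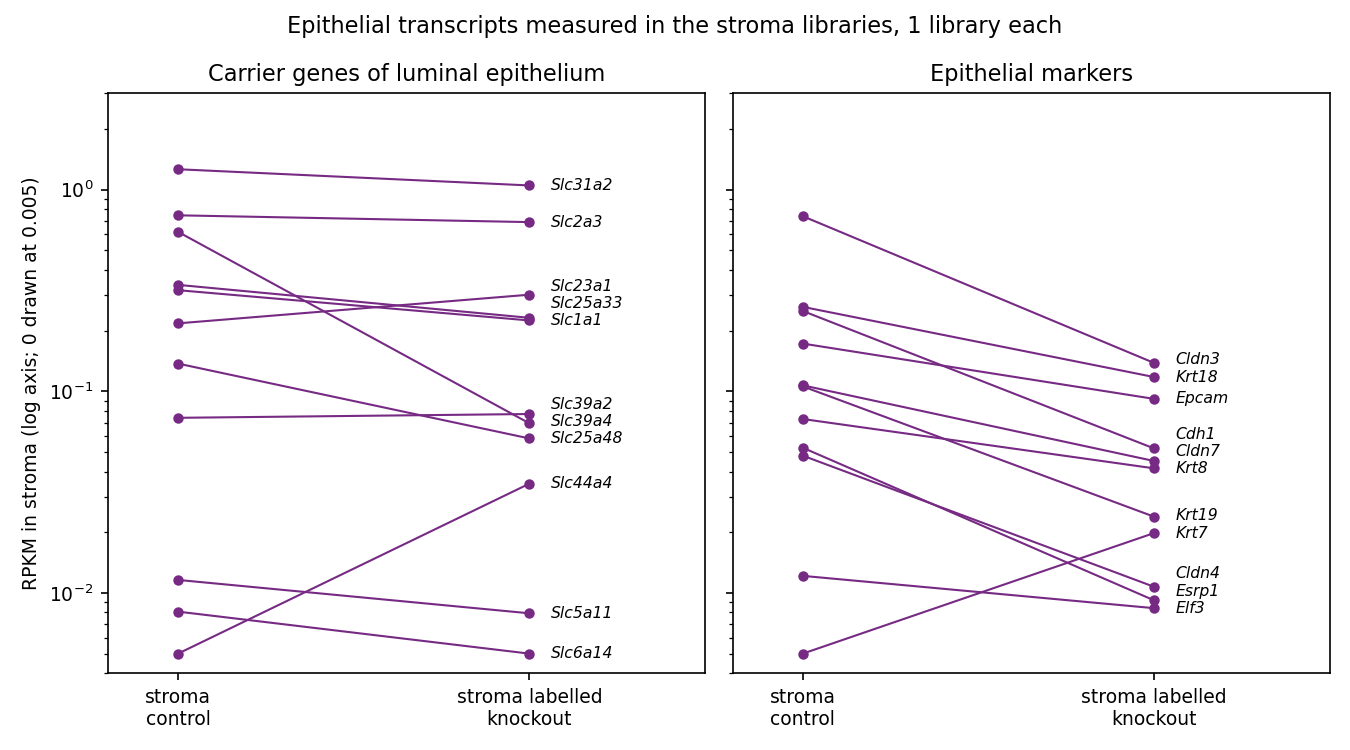
RPKM in the stroma control and stroma labelled knockout, on a logarithmic axis, for the 11 carrier genes of luminal epithelium (left) and the 11 epithelial markers (right), 1 line for each gene. Slc39a4 goes from 0.618 to 0.0694 RPKM, and 8 of the 11 carrier genes and 10 of the 11 markers are lower in the labelled knockout.

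The third comparison set luminal epithelium against stroma. The 2 tables were normalized separately, so these differences are a description across tables. In the controls 41 members (29.1%) were at least 2-fold higher in epithelium and 14 (9.93%) at least 2-fold lower, where 16.7% and 13.1% of all kept genes were. In the labelled knockouts 44 (31.2%) were higher and 13 (9.22%) lower, against 18.2% and 12.1%. The same direction at 2-fold was found in both genotypes for 35 members on the epithelial side, against 12.6% of all kept genes, and for 12 on the stromal side, against 9.38%. The difference had 1 sign in both genotypes for 129 of 141 members. That share over all kept genes is not given here, so the count is not read as particular to solute carriers. Upper quartile scaling lowered the median of all kept genes by 0.32 in the controls and 0.39 in the labelled knockouts, and left 29 higher and 18 lower members in the controls and 31 and 16 in the labelled knockouts. All kept genes then stood at 10.3% higher and 17.9% lower in the controls, and at 11.5% and 17.4% in the labelled knockouts.

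The epithelial side was led by Slc25a48 with log2 differences of 6.26 in the controls and 6.44 in the labelled knockouts, then Slc39a4 with 5.17 and 6.18, Slc2a3 with 4.34 and 5.48, Slc1a1 with 4.76 and 4.28, Slc5a11 with 4.27 and 4.98 and Slc6a14 with 4.17 and 4.38. These genes import metal, sugar, amino acids or inositol, apart from the mitochondrial Slc25a48. Slc23a1, the ascorbate transporter of absorptive epithelia, was at 10.3 and 11.3 RPKM in epithelium and 0.217 and 0.301 RPKM in stroma. The choline transporter-like Slc44a4 was at 7.44 and 8.91 RPKM in epithelium, listed at 0 in stroma control and at 0.0348 RPKM in stroma labelled knockout. The mitochondrial pyrimidine nucleotide carrier Slc25a33 was at 9.43 and 7.57 RPKM in epithelium and 0.337 and 0.232 RPKM in stroma. All 13 members of the sugar class, which includes Slc5a5, were above 0 on this comparison in both genotypes as deposited. Under the rescalings 12 or 13 of them were so. The share of all kept genes above 0 is not given here.

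The stromal side was led by Slc29a1 (chromosome 17, 45722149 to 45736552), with log2 differences of -3.24 in the controls and -3.05 in the labelled knockouts and epithelial levels of 0.194 and 0.130 RPKM. Next came Slc43a3, a purine base transporter, at 2.41 and 2.41 RPKM in stroma against 0.139 and 0.0577 RPKM in epithelium. The noradrenaline transporter Slc6a2 was at 2.73 and 3.59 RPKM in stroma against 0.344 and 0.149 RPKM. Paralogs of epithelial carriers stood here too: the ascorbate transporter Slc23a2, at 1.35 and 1.31 RPKM in stroma and 0.0560 and 0.0510 RPKM in epithelium, mirrored Slc23a1. The folate carrier Slc19a1 was at 1.63 and 2.11 RPKM in stroma, the phosphate importer Slc20a1 at 1.68 and 1.95 RPKM, the bicarbonate cotransporter Slc4a4 at 1.54 and 2.17 RPKM and the exchanger Slc7a6 at 1.45 and 1.97 RPKM. Each of these 4 was under 0.5 RPKM in both epithelial libraries.

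**Figure D5:**
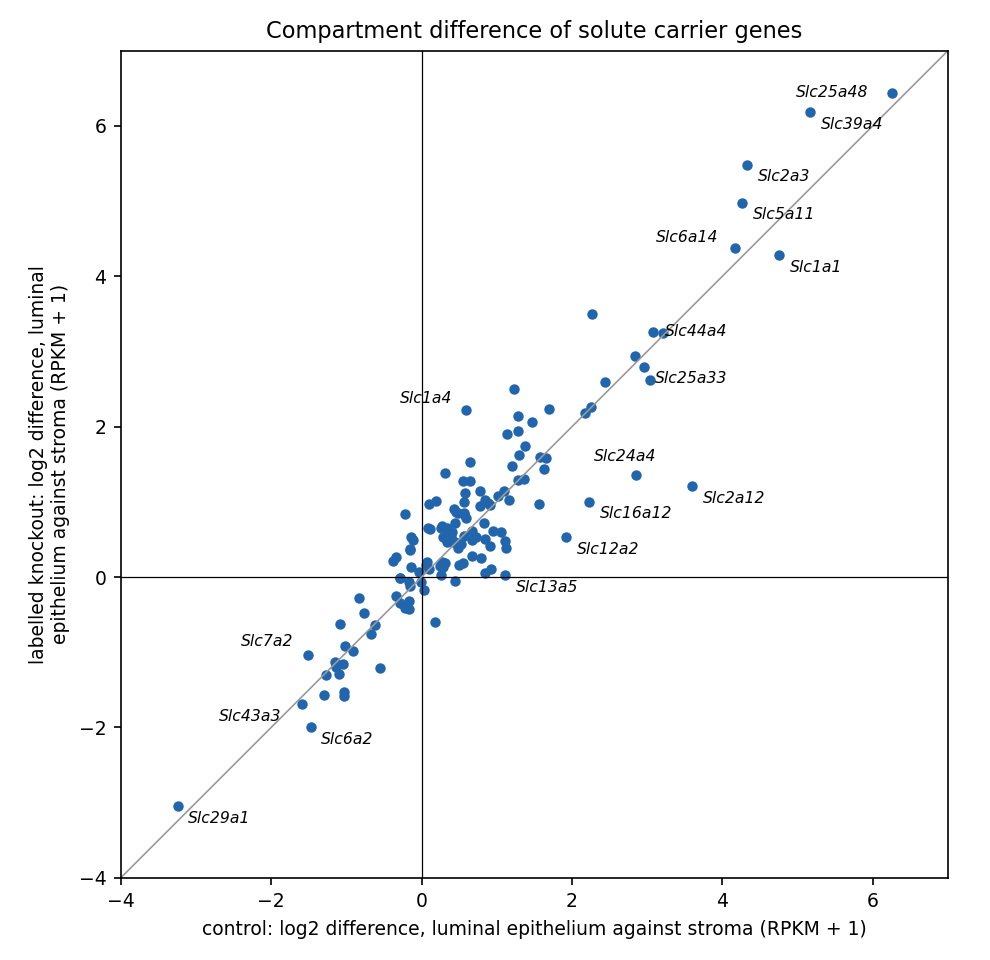
Log2 difference of luminal epithelium against stroma (RPKM + 1) for each solute carrier gene, in the controls (horizontal) and in the labelled knockouts (vertical), with the line of equal differences. Most genes lie near the line; Slc2a12 (3.60 and 1.21), Slc24a4, Slc16a12 and Slc12a2 lie below it and Slc1a4 (0.59 and 2.23) above it.

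The genes that differed between the epithelial libraries were displaced on this comparison as well, which uses the same epithelial values. Against stroma, the log2 difference of Slc2a12 was 3.60 between the controls and 1.21 between the labelled knockouts, and that of Slc24a4 was 2.85 and 1.35. Slc1a4 had 0.59 and 2.23. In stroma Slc2a12 was at 1.72 and 1.73 RPKM, Slc24a4 was at 0.02496 RPKM in control and listed at 0 in labelled knockout, and Slc1a4 was at 0.460 and 0.775 RPKM, a ratio of 1.68 (1.27 to 2.22).

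Genes that work with solute carriers, on a list of 34 subunits, chaperones, regulators and metal-binding proteins, were read beside them. Of these 27 were kept by the expression rule. In epithelium labelled knockout 24 of 34 were above 0 and 8 below, and 1 of the 27 kept was at least 2-fold higher, where 4.17% of all kept genes were: Sgk1, a kinase that raises the activity of epithelial transporters, at 17.6 RPKM in control and 45.4 RPKM in labelled knockout, a ratio of 2.59 (2.29 to 2.94). Emb, a chaperone of monocarboxylate transporters, was at 21.5 and 42.6 RPKM, and Tfrc, the transferrin receptor, at 0.183 and 0.959 RPKM. In stroma 18 were above 0 and 15 below, and none was 2-fold apart. The counts above and below 0 take in partners that the expression rule did not keep. No share over all genes is given beside those counts, so they are described only. Carriers that have kept other symbols were a list of 34, of which 32 were in the tables and 15 kept. In epithelium 3 of those 15 were at least 2-fold higher in the labelled knockout and none lower, where 4.17% and 1.86% of all kept genes were. They were the prostaglandin transporter Slco2a1 at 0.0447 and 2.70 RPKM and the lysophospholipid transporter Mfsd2a at 0.623 and 3.04 RPKM. The third was Brp44, a subunit of the mitochondrial pyruvate carrier, at 7.40 and 17.9 RPKM. Slco2a1 and Mfsd2a met the expression rule through the epithelium labelled knockout alone, the library in which they were high. The count of 3 is therefore described only.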

How the data were processed

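RNA of luminal epithelium and stroma was captured by laser microdissection, extracted with the PicoPure kit and made into stranded total RNA libraries after ribosomal RNA depletion, per the labels' protocols. The authors deposited 1 table per compartment with RPKM, a log2 fold change and p-values and q-values of their own comparison, per the file headers. The submitters' processing notes name the build mm9, Cufflinks 2.0.2, TopHat2 2.0.5, TopHat and CASAVA 1.8.2, while the role of each tool is not given in the sources used here. Members, gene lists and substrate classes (by family number) were chosen with earlier results of these data known.

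Differences were log2((a + 1)/(b + 1)), with a pseudocount of 1 RPKM, counted at 2-fold beside all 10163 genes kept by the same rule. With 1 library per group no p-value was computed. Depth came from the steps between low RPKM values multiplied by transcript length less 200 bases, with GENCODE vM21 lengths matched for 104 members by identifier and 36 by symbol, and 1 member (Slc24a6) had none. Between 54.1% and 57.9% of low values lay within 0.2 of whole reads at the fitted step. A window that wide also takes in a large share of evenly spread values, and the step was chosen for its fit. The depths and the reads estimated from them are therefore approximate. Limits on ratios are 95% Clopper-Pearson intervals on those estimated reads. They cover counting error only, and amplified reads are not separate molecules. Locus starts were raised by 1, since 7152 of 20601 loci had their RefSeq length when starts were counted from 0 and 452 when counted from 1. The loci of 14 members overlap another row.

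Genes were named by rule: the 10 largest differences in each direction in epithelium, 8 in stroma and 10 between compartments, the 10 highest of each library, the 3 highest of each class, a list of uterine carriers, and 5 genes on each side of the expression minimum. Alternatives were pseudocounts of 0.1 and 0.5 RPKM, 2 rescalings, 3 other minima, counting limits and a 1.5-fold threshold. 1 result is left out and not reported here. No column of values was left without a library or comparison. The steps were tested on simulated data. The versions were scipy 1.17.1, pandas 2.3.3, matplotlib 3.10.9 and numpy 2.4.6 under Python 3.11.15.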

Additional observations from a re-analysis of the deposited data

Results flagged for a closer look

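In 4 members the labelled knockout stood above the control in 1 compartment and below it in the other, by at least 0.25 on the log2(RPKM + 1) scale in each. The difference between the compartments was not tested, since each rests on 1 library per group. Slc7a5 (LAT1) had a log2 difference of -0.32 in luminal epithelium and 0.46 in stroma. Slc15a2 (PEPT2) had 0.96 in luminal epithelium and -0.28 in stroma, where it was at 0.990 and 0.641 RPKM. Slc25a27, a mitochondrial uncoupling protein family member just inside the expression rule, had 0.35 in luminal epithelium and -0.26 in stroma. The zinc importer Slc39a4 had 0.41 in luminal epithelium and -0.60 in stroma, where epithelial markers were lower in the labelled knockout as well and its level did not reach 1 RPKM.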

How the results depend on the processing

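No paired analysis was possible because each group has 1 library, and for the same reason no replicate could be left out. In epithelium the 4 higher members became 17 and 8 with pseudocounts of 0.1 and 0.5 RPKM, 2 and 2 under upper quartile scaling and scaling without the 50 most abundant genes, and 23 at 1.5-fold. The 5 lower members became 11 with a pseudocount of 0.1 RPKM, 3 of the members reaching 5 RPKM and 10 at 1.5-fold. In stroma the count of 0 became 2 higher and 2 lower at 1.5-fold, and 1 lower with a pseudocount of 0.1 RPKM. Between compartments in the controls, the 41 higher members became 62 with a pseudocount of 0.1 RPKM, and the 14 lower members became 5 with a pair mean of at least 1 RPKM and 1 of those reaching 5 RPKM. In the labelled knockouts the 44 higher members became 68 with a pseudocount of 0.1 RPKM, 29 of those reaching 5 RPKM and 70 at 1.5-fold, and the 13 lower members became 1 of those reaching 5 RPKM. Requiring also that the counting limits exclude a ratio of 1 left these 8 counts as they were. Dropping the expression minimum could not change them, since a gene under 1 RPKM in every library cannot reach 2-fold with a pseudocount of 1 RPKM. The higher minimum tests fewer genes, 39 in place of 141. For the other changes the cause was not tested. Of 89 named members, the rescalings changed the sign of the epithelial difference in 11 and 15 and of the stromal difference in 6 and 6, none of them at 0.5 or more in size. The shallow epithelium control limits low genes, since 3 reads on a 2 kb transcript stood for 0.239 RPKM there and for 0.0170 RPKM in its partner.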

Other observations

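Genes beside the members that differed between the epithelial libraries were read as values, and those named were chosen after their values were seen. Of 31 rows within 100 kb of the 9 members, 15 were kept by the expression rule, of which 3 were at least 2-fold lower in epithelium labelled knockout and none higher, where 1.86% and 4.17% of all kept genes were. Ifit1, an interferon-induced gene 18.4 kb from Slc16a12, went from 13.7 RPKM in control to 0.344 RPKM in labelled knockout, 39.9-fold lower (30.5 to 52.8 from counting error). Ifit3, 79.4 kb from Slc16a12, was at 1.76 and 0.0323 RPKM. Xaf1, another interferon-induced gene 35.02 kb from Slc13a5, was at 6.58 and 1.89 RPKM. In stroma the same 3 genes were under 1 RPKM in both libraries. The sum of leukocyte markers was lower in epithelium labelled knockout too, at 18.6 and 3.46 RPKM, with 8 of 11 markers lower and 3 higher. Their part was not tested.

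Metallothioneins, which bind zinc, were among the most abundant transcripts beside the zinc importers in epithelium. Mt1 stood at 323.1 RPKM in control and 499.2 RPKM in labelled knockout, a ratio of 1.54 (1.43 to 1.67), and Mt2 was at 233.8 and 222.7 RPKM, a ratio of 0.952 (0.866 to 1.05). In stroma Mt1 was at 3.75 and 3.06 RPKM and Mt2 at 0.570 and 1.38 RPKM. The sodium pump subunit Atp1b1 was at 78.4 and 89.1 RPKM in epithelium and 0.385 and 0.275 RPKM in stroma, and Fxyd4, a regulator of the pump, at 323.1 and 531.4 RPKM in epithelium and 0.291 and 0.152 RPKM in stroma. These genes were chosen from the list of partners after their values were seen.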
